A study of Mus musculus with 6 samples.

Results

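The 10 transcription factors described here hold mouse embryonic stem cells in a pluripotent state, and their messages were measured in cells with and without DGCR8, which holds primary miRNA transcripts for cleavage by DROSHA. The 10 factors were chosen by name, as the core circuit (Pou5f1, Sox2, Nanog, Sall4) and the naive circuit around it (Esrrb, Klf2, Klf4, Klf5, Tfcp2l1, Tbx3), and they are 10 of the 21978 entries of the count table. All 10 passed the expression filter, as did 16498 genes in all. The KO cells were DGCR8 -/- and not transfected, and both of their libraries, 1 and 3, carry clone number 261. The E518K cells, clones 8 and 15, had the labelled genotype E518K/E518K and carried a doxycycline-driven Sleeping Beauty transposon for Flag-DGCR8-E518K, an amino acid substitution in DGCR8. The wt cells, clones 12 and 16, had the labelled genotype wt/wt and carried the same kind of transposon for Flag-DGCR8-wt. All 6 cultures received 300 ng/mL doxycycline for 48 h and grew without feeder cells on gelatin in LIF with inhibitors of GSK3 (CHIR99021) and of MEK (PD0325901). The sources used here do not say which line the transfected clones were made from. KO therefore differed from the other groups in transfection as well as in DGCR8, and these cannot be told apart.

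OCT4 (encoded by Pou5f1) and SOX2 bind composite DNA elements together, and with NANOG and SALL4 they occupy enhancers of most genes that stem cells express. The naive factors connect this core to the culture signals. LIF acts through JAK and STAT3 on Klf4 and Tfcp2l1, inhibition of GSK3 relieves Esrrb from repression by TCF7L1, and inhibition of MEK removes a signal that degrades KLF2 protein. Embryonic stem cells that lack miRNAs are known to proliferate slowly and to silence the pluripotency circuit poorly when told to differentiate, and in cells that do make miRNAs the miR-290 family is among the most abundant.

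The sequences through which miRNAs could reach these transcripts were read first. Mature miRNAs are from RefSeq (GRCm38.p6), with the seed, bases 2 to 8, in capitals. The miR-291a-3p, miR-294-3p and miR-295-3p entries share 1 seed, that of the miR-290 family. The others are shown because they hold the only match in Klf2 or Tbx3, or an 8mer match in Sall4, Esrrb or Klf4.
mmu-miR-291a-3p: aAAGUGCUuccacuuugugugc
mmu-miR-294-3p: aAAGUGCUucccuuuugugugu
mmu-miR-295-3p: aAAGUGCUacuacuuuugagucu
mmu-miR-20a-5p: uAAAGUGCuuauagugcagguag
mmu-miR-92a-3p: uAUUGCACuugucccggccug
mmu-let-7a-5p: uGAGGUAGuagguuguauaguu
mmu-miR-34a-5p: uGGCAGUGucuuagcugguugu

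Matches to 13 seed families were searched in the longest 3′ UTR that GENCODE M21 annotates for each gene. A 7mer-m8 match pairs with the 7 seed bases, and an 8mer has an A after them as well. Only these types of match were searched, so shorter or other pairings are not counted. The windows below, from GRCm38, show in capitals 9 of the 23 matches found in the 10 factors: those to the miR-92/25 and miR-290 seeds, the Tbx3 match, and the 8mers in Sall4, Esrrb and Klf4. Among those not shown are the only match in Sox2 (miR-200) and 8mers to miR-470 in Klf5 and to miR-19 and miR-16 in Tfcp2l1.
Klf2, miR-92/25, chr8:72321122-72321151, plus strand: ttttcaaaatgGTGCAATAattgacttatt
Klf4, miR-92/25, chr4:55527356-55527385, minus strand: tggtttcagatGTGCAATAatttgtacaat
Klf5, miR-92/25, chr14:99305137-99305165, plus strand: ataaaagaagtGTGCAATtgcatataccg
Tfcp2l1, miR-92/25, chr1:118683719-118683747, plus strand: agaagtagaagGTGCAATcagaagtctgg
Tfcp2l1, miR-290, chr1:118683194-118683222, plus strand: ctcgatggccgAGCACTTcccaactgcga
Tbx3, miR-17, chr5:119683150-119683178, plus strand: aatctgccagtGCACTTTgttagatgtaa
Sall4, let-7, chr2:168748929-168748958, minus strand: ctttaatttatCTACCTCAattatctttat
Esrrb, let-7, chr12:86519671-86519700, plus strand: gcttcctgcccCTACCTCAgccagccggaa
Klf4, miR-34, chr4:55528082-55528111, minus strand: gatgtgacccaCACTGCCAggagagagagt

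Only Tfcp2l1 held a match to the miR-290 seed, 1 of the 10 factors, beside 16.7% of the 14780 UTRs searched. The miR-92/25 seed had a match in 4 factors (Klf2, Klf4, Klf5 and Tfcp2l1), beside 7.31% of UTRs, and the matches in Klf2 and Klf4 were 8mers, beside 2.69%. The Klf5 match lies in 1 of its 2 annotated UTRs, and the Esrrb let-7 match in 3 of its 4. Sall4 and Esrrb both held a let-7 8mer, beside 3.56% of UTRs. Pou5f1, with a UTR of 221 bases, and Nanog, with one of 1078 bases, held no match to any of the 13 families, whereas the 7734 bases of the Tfcp2l1 UTR held matches to 6. A match is a stretch of letters and was not tested as a site. Longer UTRs hold more matches, and the counts above are not corrected for length.

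**Figure D1:**
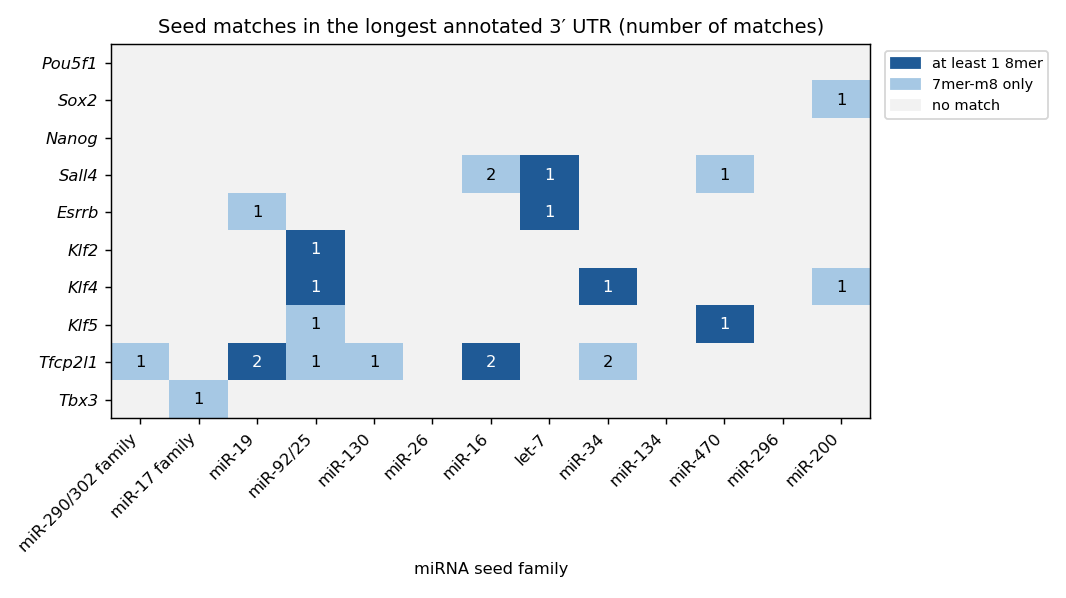
Seed matches in the longest annotated 3′ UTR of each factor (rows) for 13 miRNA seed families (columns). The number in a cell counts matches, dark cells hold at least 1 8mer and light blue cells a 7mer-m8 only. Klf2, Klf4, Klf5 and Tfcp2l1 share the miR-92/25 column, and the Pou5f1 and Nanog rows are empty.

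Library totals lay between 73642784 and 75121971 counts. Dgcr8 itself was at 39.96 and 37.07 CPM (library-scaled counts, with TMM factors) in KO, at 820.6 and 420.2 CPM in E518K and at 195.5 and 992.4 CPM in wt. The counts do not separate the transposon's transcript from the cells' own gene, nor show which exons the KO reads come from. The wt clones differed from each other more than the other pairs, with a median gap between libraries of 0.218 log2 units over all genes, against 0.129 in E518K and 0.0683 in KO. For the 10 factors the median gap was 0.0345 in KO, 0.0597 in E518K and 0.229 in wt. All 6 libraries carried the stem cell markers Zfp42, at 293.1 to 406.3 CPM, and Dppa5a, at 1195 to 2029 CPM. The share of counts on mitochondrial transcripts was 5.002% and 4.967% in KO, 3.802% and 3.559% in E518K and 3.245% and 3.229% in wt, and its part in the differences below was not tested.

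In counts not divided by gene length, each list of markers of other states summed to less than the factors. The factors summed to 5111 and 5029 CPM of raw library counts in KO, 5081 and 5037 in E518K and 5787 and 5257 in wt. The 15 formative and primed markers, described further below, summed to 513.2 and 509.0 CPM in KO, 568.4 and 511.7 in E518K and 377.1 and 486.7 in wt. The 12 trophectoderm markers summed to 91.02 and 96.9 CPM in KO, 76.12 and 67.52 in E518K and 111.8 and 87.69 in wt. Of the 10 tested, 1 was higher and 6 lower in KO than in wt, against 27.4% and 29.7% of all genes (median -1.10). Ascl2 was at -3.21 ± 0.20 (adjusted p = 4.95e-05) and Krt8 at 1.72 ± 0.17 (0.000247). In E518K against wt 1 was higher and 7 lower, against 11.3% and 12.5% of all genes (median -1.05). With only the 4 libraries compared, those counts were 0 and 3. The 10 primitive endoderm markers summed to 412.7 and 409.5 CPM in KO, 277.1 and 262.6 in E518K and 413.1 and 353.9 in wt. Sparc made up most of these sums, at 383.3 and 378.8 CPM in KO, 251.8 and 236.2 in E518K and 345.7 and 311.1 in wt. By these counts it was above the factors Sall4, Klf4 and Klf5 in every library. Gata6, Sox7, Sox17, Foxa2 and Dab2 were under 1 CPM in every library. The 8 two-cell-like markers, genes of a rare state of these cultures, summed to 35.99 and 39.79 CPM in KO, 13.18 and 7.611 in E518K and 2.489 and 24.94 in wt, so that the wt clones stood further apart than KO and wt clone 16. The 9 mesoderm and streak markers summed to 18.29 and 19.33 CPM in KO, 9.378 and 9.123 in E518K and 4.34 and 4.644 in wt, so that all 3 groups stood apart. Of the 6 that were tested, 3 were higher in KO than in wt and 0 lower, against 27.4% and 29.7% of all genes. Evx1 was higher by 5.20 ± 0.33 log2 units (adjusted p = 4.84e-05), Kdr by 4.56 ± 0.36 (0.000101) and Gsc by 1.03 ± 0.21 (0.00513). T was not called and was lower in KO, at 0.8794 and 1.581 CPM against 1.807 and 1.65 in wt. Mixl1, Mesp1, Tbx6, Hand2 and Foxf1 stayed under 1 CPM in every library. The 9 neural markers summed to 78.97 and 84.78 CPM in KO, 79.53 and 69.13 in E518K and 56.19 and 55.55 in wt, most of it Tubb3. Of the 8 tested, 3 were higher in KO than in wt (Pax6, Map2 and Tubb3) and 1 lower (Zfp521), against 27.4% and 29.7% of all genes. Pax6 (3.36 ± 0.49, 0.00115) was at 2.586 and 2.761 CPM in KO and 0.1103 and 0.4057 in wt. Zfp521 (-1.93 ± 0.51, 0.0142) was at 0.3104 and 0.1296 CPM in KO and 0.6897 and 1.001 in wt. The 9 fibroblast markers summed to 5.63 and 5.933 CPM in KO, 3.973 and 3.478 in E518K and 7.348 and 7.604 in wt. No marker was at 0 in all 6 libraries, and the part of these lists in the results was not tested. In bulk cultures, fewer cells of a state and less RNA per cell cannot be told apart.

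Levels of different genes can be compared only per length, and neither length used here gives a level of exons alone. Counts appear to cover whole gene spans, introns included. Division by exon length can therefore raise genes with long introns, such as Esrrb and Tfcp2l1, in the order that follows. Per kb of exon, Pou5f1 had the highest mean over the 6 libraries, 552.2 CPM per kb, followed by Nanog (304.6), Klf2 (268.6), Sox2 (257.9), Esrrb (119.2), Tfcp2l1 (75.04), Klf4 (68.52), Sall4 (43.86), Tbx3 (41.17) and Klf5 (23.02). Pou5f1 stood first and Klf5 last in each of the 3 groups. Klf2 came next after Pou5f1 in KO and stood below Nanog and Sox2 in E518K and wt, and Tbx3 lay below Sall4 in KO and E518K and above it in wt. Nanog, Klf2 and Sox2 exchanged places between groups and were not separated by their spread over the 6 libraries.

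The deposited TPM gave another order. TPM in this table were divided by the genomic span of a gene, introns included, for 98.4% of 14897 genes to within 5%. Esrrb, which spans 160512 bp with 6047 bp of exons (chr12:86361117-86521628), averaged only 29.6 TPM, the lowest of the 10, and Tfcp2l1, which spans 57224 bp (chr1:118627945-118685168), averaged 82.18 TPM. Sox2, a gene of 1 exon (chr3:34650405-34652461), averaged 1703 TPM, next to Pou5f1 at 1720 TPM. Pou5f1, Klf2 and Sall4, 3 of the 10, had the same rank on both scales. By TPM the 10 factors stood between percentile 83.18 (Esrrb) and 99.45 (Pou5f1) of the tested genes.

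**Figure D2:**
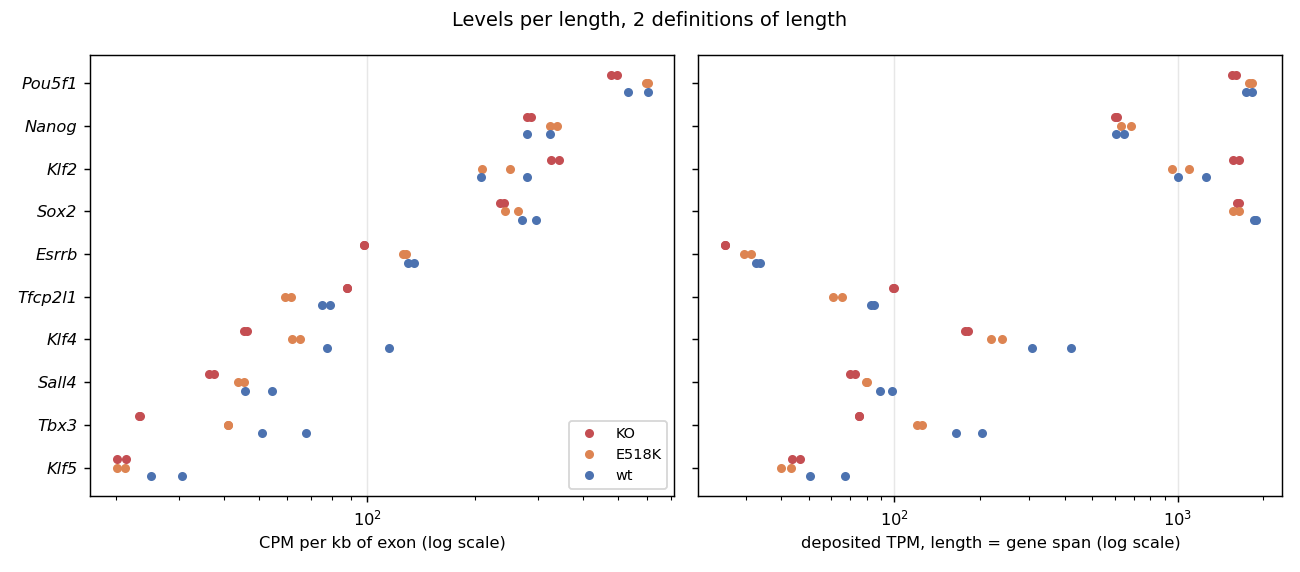
Level per length of each factor in every library, as CPM per kb of exon (left) and as deposited TPM, whose length is the gene span (right), both on log axes. Points are libraries, coloured by group. Esrrb is in the middle on the exon scale and lowest on the TPM scale.

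In KO cells the network was lower than in wt cells in most of its members but not in all. Sall4, Esrrb, Klf4, Klf5, Tbx3, Pou5f1 and Sox2 fell, Klf2 and Tfcp2l1 rose, and Nanog did not pass the test. That is 9 of 10 factors called at an adjusted p under 0.05 by edgeR's quasi-likelihood test, 2 higher and 7 lower, in a comparison in which 57.2% of all tested genes were called, 27.4% higher and 29.7% lower. The median log2 fold change of the factors was -0.33, against -0.02 over all genes, and their median absolute change was 0.42, against 0.52 over all genes. Libraries of KO and wt did not overlap for 9 factors, all but Nanog, as for 81.7% of genes. With KO library 1 left out 4 factors were called, and with KO library 3 left out 5 were, none of them higher.

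In E518K cells 4 factors were lower than in wt cells (Klf4, Klf5, Tfcp2l1 and Tbx3) and none was higher. Over all genes 23.7% were called, 11.3% higher and 12.5% lower. The median log2 fold change of the factors was -0.17, against -0.02 over all genes. Libraries did not overlap for 8 factors, all but Pou5f1 and Klf2, as for 62% of genes. Leaving out E518K clone 8 gave 1 called factor, E518K clone 15 gave 0, and KO library 1 or 3 gave 2, although the KO libraries enter only the shared estimate of spread. DESeq2 called 4.

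Between the DGCR8-altered groups, 6 factors differed. Pou5f1, Sall4, Esrrb and Tbx3 were higher in E518K than in KO, and Klf2 and Tfcp2l1 were lower, in a comparison that called 41.8% of genes, 22% higher and 19.8% lower. Libraries did not overlap for 9 factors, all but Klf5, as for 80.5% of genes. Left-out libraries gave 3 called factors without KO library 1 or 3 and without E518K clone 8 or 15, and 8 without wt clone 12 or 16. The 3 comparisons share libraries in pairs, so they are set side by side and are not independent.

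**Figure D3:**
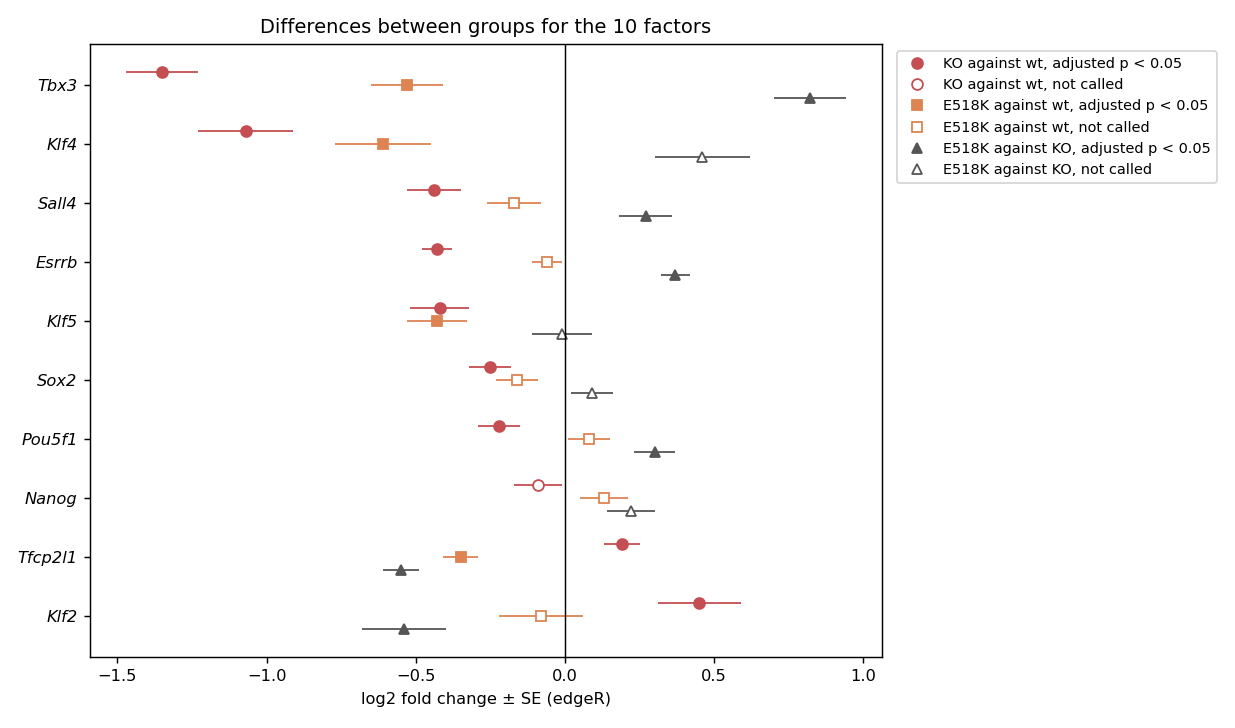
Log2 fold change with its standard error for each factor in the 3 comparisons (edgeR; 2 libraries per group). Filled symbols have an adjusted p under 0.05. Tbx3 and Klf4 lie furthest to the left in KO against wt, and Klf2 and Tfcp2l1 lie to the right of 0 only in that comparison.

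Pou5f1 (chr17:35506018-35510772), the POU-domain factor without which pluripotent cells are lost, was at 1114 and 1076 CPM in KO, 1361 and 1344 in E518K and 1358 and 1196 in wt. Both KO libraries were below all others, and the E518K libraries lay around the higher wt clone. The log2 fold change was -0.22 ± 0.07 in KO against wt (adjusted p = 0.0305), 0.08 ± 0.07 in E518K against wt (0.426) and 0.30 ± 0.07 in E518K against KO (0.0123). These are small calls. The first was lost with only the 4 libraries compared and with the KO libraries summed. It was also lost without KO library 1 or 3, wt clone 12 and E518K clone 8 or 15. The third was lost with the KO libraries summed, without KO library 1 or 3 and without E518K clone 8 or 15. Without wt clone 12, E518K against wt was called at 0.18 (0.0315, range 0.0315 to 0.939).

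Sox2 (chr3:34650405-34652461), the HMG-box partner of OCT4, was at 495.7 and 483.7 CPM in KO, 540.6 and 499.3 in E518K and 607.8 and 555.4 in wt. The groups did not overlap, in the order KO, E518K, wt. Sox2 fell in KO against wt by 0.25 ± 0.07 log2 units (adjusted p = 0.0185), and the differences of -0.16 ± 0.07 in E518K against wt (0.133) and 0.09 ± 0.07 in E518K against KO (0.349) did not pass. The call was lost without KO library 1 or 3 and with the KO libraries summed. E518K against wt passed without wt clone 16 (-0.23) and by limma on log2(TPM + 1) and log2(TPM + 0.1). The ratio of Pou5f1 to Sox2 counts was 2.248 and 2.224 in KO, 2.517 and 2.692 in E518K and 2.234 and 2.153 in wt. It was thus higher in both E518K libraries than in the other 4, and was not tested.

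Nanog (chr6:122707489-122714633), the homeodomain factor that sustains self-renewal when overexpressed, was at 641.7 and 626.8 CPM in KO, 723.9 and 756.0 in E518K and 722.3 and 626.7 in wt. Clone 16 of wt was level with the KO libraries, and wt clone 12 with E518K clone 8. No comparison called it in the fit of all 6 libraries, at -0.09 ± 0.08 in KO against wt (adjusted p = 0.35), 0.13 ± 0.08 in E518K against wt (0.241) and 0.22 ± 0.08 in E518K against KO (0.0522). The last was called under 7 of the 15 alternatives, among them DESeq2 (0.0425), upper-quartile factors (0.0302), only the 4 libraries compared (0.00278) and the fits without wt clone 12 (0.00224) or 16 (0.00208), over a range of 0.00208 to 0.244. KO against wt was 0.02 without wt clone 12 and -0.19 without wt clone 16 (0.0118, range 0.0118 to 0.811), and E518K against wt was 0.24 without wt clone 12 (0.0108, range 0.0108 to 0.639). GENCODE annotates Nanog pseudogenes, and the sources used here do not say how reads that map to several places were counted, so its counts are uncertain.

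Sall4 (chr2:168748332-168767943), a zinc-finger protein that binds the NuRD complex, was at 201.5 and 207.4 CPM in KO, 251.4 and 241.7 in E518K and 301.7 and 253.1 in wt. The order was again KO, E518K, wt without overlap. It fell in KO against wt by 0.44 ± 0.09 log2 units (adjusted p = 0.00446), a call kept under all 15 alternatives. It was higher in E518K than in KO by 0.27 ± 0.09 (0.0428). That call was lost by limma on log2(TPM + 1) and log2(TPM + 0.1) and with the KO libraries summed. It was also lost without KO library 1 or 3 and without E518K clone 8 or 15. E518K against wt was -0.17 ± 0.09 (0.197) and passed without wt clone 16 (-0.29, 0.00289, range 0.00289 to 0.665).

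**Figure D4:**
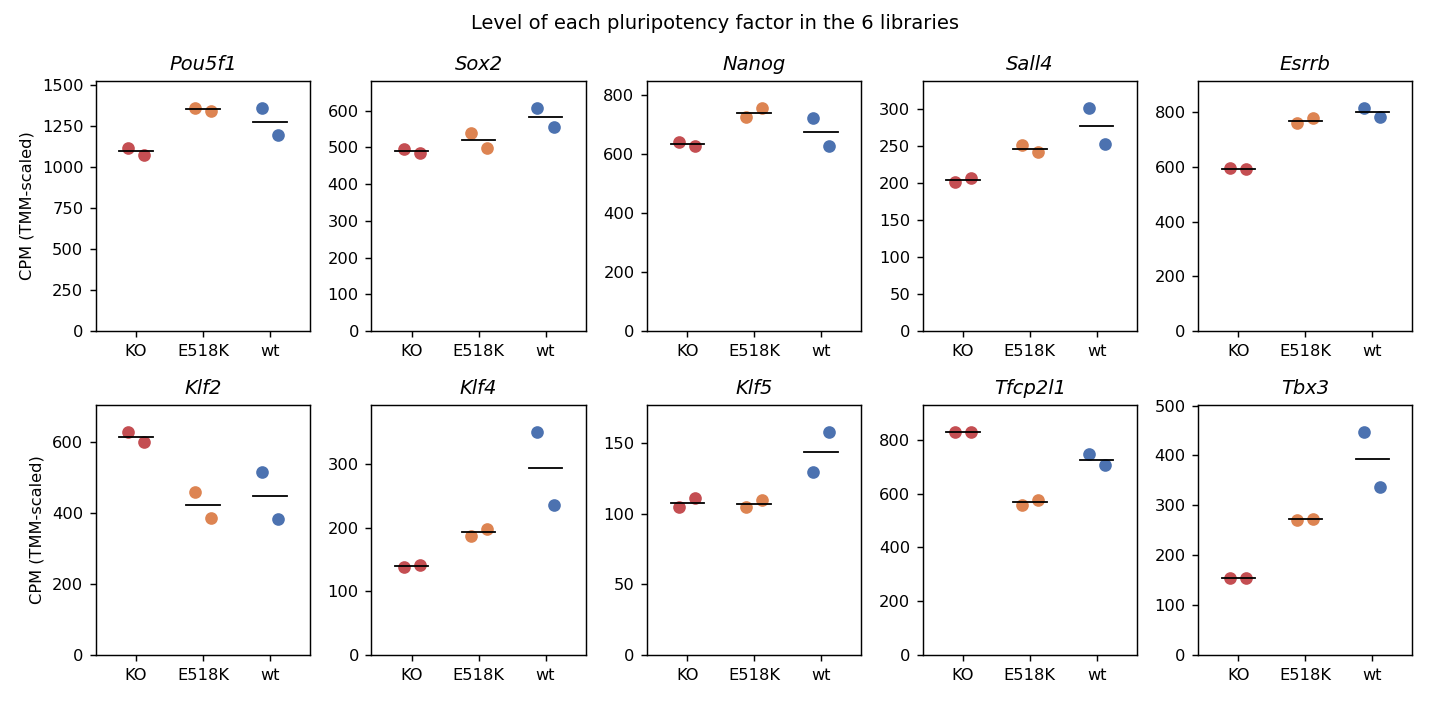
Level of each factor in CPM (TMM-scaled) in every library, with KO, E518K and wt from left to right. Points are libraries and bars are group means; each axis starts at 0. Tbx3 and Klf4 climb across the groups, Klf2 is highest in KO, and Tfcp2l1 is lowest in E518K.

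Esrrb, the orphan nuclear receptor that TCF7L1 represses, was at 594.7 and 593.0 CPM in KO, 759.6 and 778.3 in E518K and 816.2 and 784.0 in wt. The KO libraries stood well below the other 4, which lay close together. Esrrb averaged 593.8 ± 1.219 CPM in KO, 769.0 ± 13.23 in E518K and 800.1 ± 22.8 in wt (SD, n = 2 each). It fell in KO against wt by 0.43 ± 0.05 log2 units (adjusted p = 0.000605) and was higher in E518K than in KO by 0.37 ± 0.05 (0.00181), and both calls were kept under all 15 alternatives. E518K against wt was -0.06 ± 0.05 (0.471) and passed under no alternative.

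Tfcp2l1, a CP2-family factor induced by LIF and STAT3, had a different order. It was at 831.4 and 829.8 CPM in KO, 558.8 and 577.8 in E518K and 746.1 and 705.6 in wt. Each group stood apart, with KO above wt and E518K below wt. KO against wt was 0.19 ± 0.06 (adjusted p = 0.0214), E518K against wt was -0.35 ± 0.06 (0.00695) and E518K against KO was -0.55 ± 0.06 (0.000545). The last call was kept under all 15 alternatives. E518K against wt was lost only without E518K clone 15 (0.0594, range 3.97e-05 to 0.0594), and leaving out KO library 1 (0.152) or 3 (0.146) ended the KO against wt call, as did upper-quartile scaling (0.0538) and summing of the KO libraries (0.142), in a range of 0.00453 to 0.152. Tfcp2l1 is also the factor with the miR-290 match shown above, and the part of that match in these levels was not tested.

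Tbx3 (chr5:119670669-119684724), a T-box factor that sustains naive cells downstream of LIF, had the largest difference of the 10 in KO against wt. It was at 154.7 and 153.4 CPM in KO, 270.8 and 272.4 in E518K and 447.9 and 337.1 in wt. No libraries of different groups overlapped, and the means were 154.1 ± 0.957 CPM in KO, 271.6 ± 1.144 in E518K and 392.5 ± 78.35 in wt (SD, n = 2 each). Tbx3 fell by 1.35 ± 0.12 log2 units in KO against wt (adjusted p = 0.000167), which is 2.55-fold lower, and by 0.53 ± 0.12 in E518K against wt (0.0216), and was higher in E518K than in KO by 0.82 ± 0.12 (0.00201). The KO against wt and E518K against KO calls were kept under all 15 alternatives. E518K against wt was lost without E518K clone 8 (0.119) or 15 (0.149), and its size was -0.31 without wt clone 12 and -0.72 without wt clone 16, with adjusted p between 2.11e-05 and 0.149 over the alternatives.

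The 3 KLF factors, zinc-finger proteins that can stand in for each other in self-renewing mouse cells, moved in different directions. Klf2 (chr8:72319033-72321656) was at 630.5 and 600.5 CPM in KO, 460.8 and 387.0 in E518K and 515.5 and 382.7 in wt. Both KO libraries were above all others, while both E518K clones lay between the wt clones. Klf2 was higher in KO than in wt by 0.45 ± 0.14 log2 units (adjusted p = 0.0285) and lower in E518K than in KO by 0.54 ± 0.14 (log2 fold change -0.54, 0.0205), with -0.08 ± 0.14 in E518K against wt (0.703). The KO against wt call ended when KO library 1 or 3, E518K clone 15 or wt clone 16 was left out. It also ended with the KO libraries summed. The difference was 0.25 log2 units without wt clone 16 and 0.68 without wt clone 12. E518K against KO was lost without KO library 1 or 3, without E518K clone 8 or 15 and with the KO libraries summed. E518K against wt turned to 0.15 without wt clone 12 and to 0.05 without E518K clone 15.

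Klf4 (chr4:55527143-55532466), which LIF induces through STAT3, was at 138.6 and 141.5 CPM in KO, 187.8 and 198.0 in E518K and 351.6 and 236.0 in wt. The groups did not overlap, and the wt clones differed by 0.58 log2 units, the largest gap of any factor between libraries of a group. Klf4 fell by 1.07 ± 0.16 log2 units in KO against wt (adjusted p = 0.00142), or 2.1-fold, and this call was kept under all 15 alternatives, with -0.75 without wt clone 12 and -1.33 without wt clone 16. It fell by 0.61 ± 0.16 in E518K against wt (0.0357), and was -0.29 without wt clone 12 and -0.87 without wt clone 16. That call was lost with no expression filter, by limma on log2(TPM + 1), with only the 4 libraries compared and with the KO libraries summed. It was also lost without KO library 1 or 3 and without E518K clone 8 or 15. E518K against KO was 0.46 ± 0.16 (0.0565). It was called by DESeq2 (0.0132), with upper-quartile factors, with only the 4 libraries compared and without wt clone 12 or 16.

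Klf5 (chr14:99298691-99315036) was at 104.6 and 111.0 CPM in KO, 104.7 and 109.8 in E518K and 129.8 and 158.4 in wt. The E518K libraries lay between the KO libraries, and all 4 were below both wt clones. It fell by 0.42 ± 0.10 log2 units in KO against wt (adjusted p = 0.00931) and by 0.43 ± 0.10 in E518K against wt (0.0232), and E518K against KO was -0.01 ± 0.10 (0.965). Klf5 was the only factor higher in wt clone 16 than in clone 12. Without wt clone 12 the differences were -0.56 in KO against wt and -0.56 in E518K against wt, and without wt clone 16 they were -0.27 and -0.27. The KO call was lost without KO library 1, with the KO libraries summed and by limma on log2(TPM + 1) and log2(TPM + 0.1). The E518K call was lost by the same limma fits, with only the 4 libraries compared and with the KO libraries summed. It was also lost without KO library 1 or 3 and without E518K clone 8 or 15.

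The mix of these 3 KLF messages differed between the groups. Klf2, Klf4 and Klf5 together came to 873.7 and 852.9 CPM in KO, 753.4 and 694.8 in E518K and 996.9 and 777.1 in wt, so that KO lay between the wt clones. Klf2 made up 72.17% and 70.4% of that sum in KO, 61.17% and 55.69% in E518K and 51.71% and 49.24% in wt. The ratio of Klf2 to Klf4 counts was 4.548 and 4.243 in KO, 2.454 and 1.954 in E518K and 1.466 and 1.622 in wt, without overlap of the groups. Both genes hold the miR-92/25 8mer shown above. Klf2 was higher and Klf4 lower in KO than in wt, and the part of that match in their levels was not tested. These shares and ratios were computed after the single genes were seen and carry no test.

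Genes on which the factors depend or with which they act were counted in the same fits, from lists written with earlier results of these data known. Their counts are to be read beside the shares of all genes called, which were 27.4% higher and 29.7% lower in KO against wt, 11.3% and 12.5% in E518K against wt, and 22% and 19.8% in E518K against KO. Of 26 other naive network and target genes, 8 were higher and 12 lower in KO than in wt, against 27.4% and 29.7% of all genes, with a median log2 fold change of -0.21. Lin28a, which binds let-7 precursors and stops their maturation, was at 1.19 and 1.218 CPM in KO, 114.0 and 90.59 in E518K and 82.31 and 116.6 in wt, and Mybl2, a cell-cycle regulator, fell by 1.09 ± 0.09 in KO against wt (adjusted p = 0.000113). Pecam1, a surface protein of naive cells, was higher in KO than in wt by 1.22 ± 0.08 (4.43e-05). In E518K against wt, 12 of the 26 were higher and 0 lower, against 11.3% and 12.5% of all genes, with a median of 0.12, whereas 4 of the 10 factors were lower. Among them Dppa2 was at 77.14 and 76.48 CPM in E518K and 43.79 and 54.08 in wt. The 12 became 2 without E518K clone 15, 6 without E518K clone 8 and 6 without KO library 1 or 3; without wt clone 16 there were 10 higher and 5 lower, and without wt clone 12, 9 and 2.

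The LIF and STAT3 list showed changes in both directions in KO. Of 13 genes 6 were higher and 4 lower than in wt, against 27.4% and 29.7% of all genes, with a median absolute change of 1.00 log2 units against 0.52 over all genes. Il6st, the shared gp130 receptor chain, was at 237.5 and 247.1 CPM in KO, 128.4 and 122.8 in E518K and 97.05 and 104.2 in wt, and Socs3, the feedback inhibitor that STAT3 induces, at 28.04 and 30.78 in KO, 12.83 and 12.4 in E518K and 11.67 and 11.13 in wt. Pim1, a kinase gene that STAT3 also induces, was at 77.2 and 77.26 CPM in KO, 144.6 and 136.2 in E518K and 162.3 and 147.7 in wt. Against wt in KO, Il6st was higher by 1.27 ± 0.07 (adjusted p = 2.73e-05), Socs3 by 1.37 ± 0.10 (7.92e-05), and Pim1 was 2.01-fold lower (7.03e-05). Tfcp2l1 and Klf4, known targets of the same pathway, stood on opposite sides of 0 in KO against wt, as Socs3 and Pim1 did. The part of the pathway in these levels was not tested. In E518K against wt 3 of the 13 were higher and 2 lower, against 11.3% and 12.5% of all genes. The counts were 0 and 1 without E518K clone 15, 1 and 2 without KO library 1 or 3, and 4 and 4 without wt clone 16.

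In KO against wt, the lists of the pathways that the inhibitors block had median absolute changes of 0.34 (GSK3 and TCF) and 0.31 (FGF and MEK), below the 0.52 of all genes. Of 12 genes of the GSK3 and TCF list, 4 were higher and 3 lower in KO than in wt, near the 27.4% and 29.7% of all genes, among them Tcf7l2, a TCF factor, at 1.30 ± 0.11 (adjusted p = 0.000135), and 1 was higher and 0 lower in E518K than in wt. That 1 was Tcf7l1, the repressor of Esrrb, at 185.0 and 179.7 CPM in E518K and 147.6 and 124.4 in wt (0.42 ± 0.09, 0.0162), while Esrrb itself was not called in that comparison. The Tcf7l1 call was absent without E518K clone 8 and without E518K clone 15, in each of which 0 genes of the list were called. Of 19 FGF and MEK genes, 5 were higher and 9 lower in KO than in wt, against 27.4% and 29.7% of all genes, and 2 were higher and 2 lower in E518K than in wt, near the 11.3% and 12.5% of all genes. Spry4, a feedback inhibitor of that pathway, was at 17.02 and 19.4 CPM in KO, 30.65 and 41.78 in E518K and 4.607 and 4.016 in wt, and Dusp6, a phosphatase of ERK, at 3.285 and 3.914 in KO, 8.162 and 8.956 in E518K and 9.186 and 9.087 in wt. These feedback genes went in opposite directions in KO against wt, at 2.08 ± 0.17 (0.000127) for Spry4 and -1.34 ± 0.15 (0.000375) for Dusp6. Without KO library 1 or 3, the KO against wt counts were 2 higher and 2 lower in the GSK3 and TCF list, and 3 and 5 in the FGF and MEK list. In E518K against wt the FGF and MEK list had 5 higher and 3 lower without wt clone 12 or 16, and 1 and 0 without any 1 of the KO or E518K libraries.

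Partners and relatives of the factors completed the comparison. Of 22 partner proteins and chromatin cofactors, 2 were higher and 9 lower in KO than in wt, 3 and 2 in E518K than in wt, and 8 and 1 in E518K than in KO, beside the shares of all genes given above. The 7 NuRD genes in the list were grouped with their values known. Of these, 5 were lower in KO than in wt, against 29.7% of all genes. Gatad2a was at -0.65 ± 0.06 (adjusted p = 0.000135), Mta1 at -0.71 ± 0.08 (0.000473), and Mta2, Mbd3 and Chd4 at -0.38, -0.33 and -0.26. Hdac2 was higher (0.71 ± 0.12, 0.00214) and Hdac1 was not called (0.11 ± 0.05, 0.108). Paralogs of Sall4 differed among themselves in KO against wt, with Sall2 lower (-0.83 ± 0.14, 0.00245), Sall3 higher (0.23 ± 0.06, 0.0149) and Sall1 higher. Sall1 was at 267.9 and 263.7 CPM in KO, 254.9 and 252.4 in E518K and 143.0 and 149.4 in wt (0.86 ± 0.06 in KO against wt, 5.77e-05). Of the CP2-family paralogs of Tfcp2l1, Ubp1 was lower in KO than in wt (-0.59 ± 0.07, 0.000489), though its span overlaps Fbxl2, and Tfcp2 was at 64.19 and 66.39 CPM in KO, 27.61 and 25.69 in E518K and 27.56 and 26.33 in wt (1.28 ± 0.08 in KO against wt, 4.31e-05). Of 24 tested paralogs of the 10 factors, 8 were higher and 11 lower in KO than in wt, 2 and 7 in E518K than in wt, and 7 and 7 in E518K than in KO, against 27.4% and 29.7%, 11.3% and 12.5%, and 22% and 19.8% of all genes. The 15 formative and primed markers are genes that rise as naive cells move toward differentiation. Of these, 4 were higher and 7 lower in KO than in wt, against 27.4% and 29.7% of all genes, with a median of -0.76. Pou3f1, the primed-state POU factor, was at 0.3621 and 0.6092 CPM in KO, 1.666 and 1.317 in E518K and 3.779 and 2.826 in wt (-2.76 ± 0.34 in KO against wt, 0.000536). Dnmt3b, which had more counts, stood the other way. It was at 94.97 and 100.3 CPM in KO, 163.7 and 141.5 in E518K and 60.3 and 77.7 in wt. In E518K against wt, 4 of the 15 were higher and 5 lower, against 11.3% and 12.5% of all genes. Without KO library 1, counts in KO against wt were 5 higher and 8 lower for the paralogs and 2 and 5 for the formative and primed markers, and without KO library 3 they were 5 and 9 and 1 and 7. In E518K against wt, the paralogs had 2 and 1 without E518K clone 15, 2 and 2 without E518K clone 8 and 2 and 3 without KO library 1 or 3. The partners there had 1 and 0 without E518K clone 15, 1 and 1 without KO library 1 or 3, 6 and 2 without wt clone 12 and 8 and 5 without wt clone 16. In E518K against KO, the paralogs had 3 and 5 without KO library 1, 4 and 5 without KO library 3, and 10 and 9 without wt clone 12 or 16, while the partners had 5 and 0, 4 and 0, and 11 and 2.

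**Figure D5:**
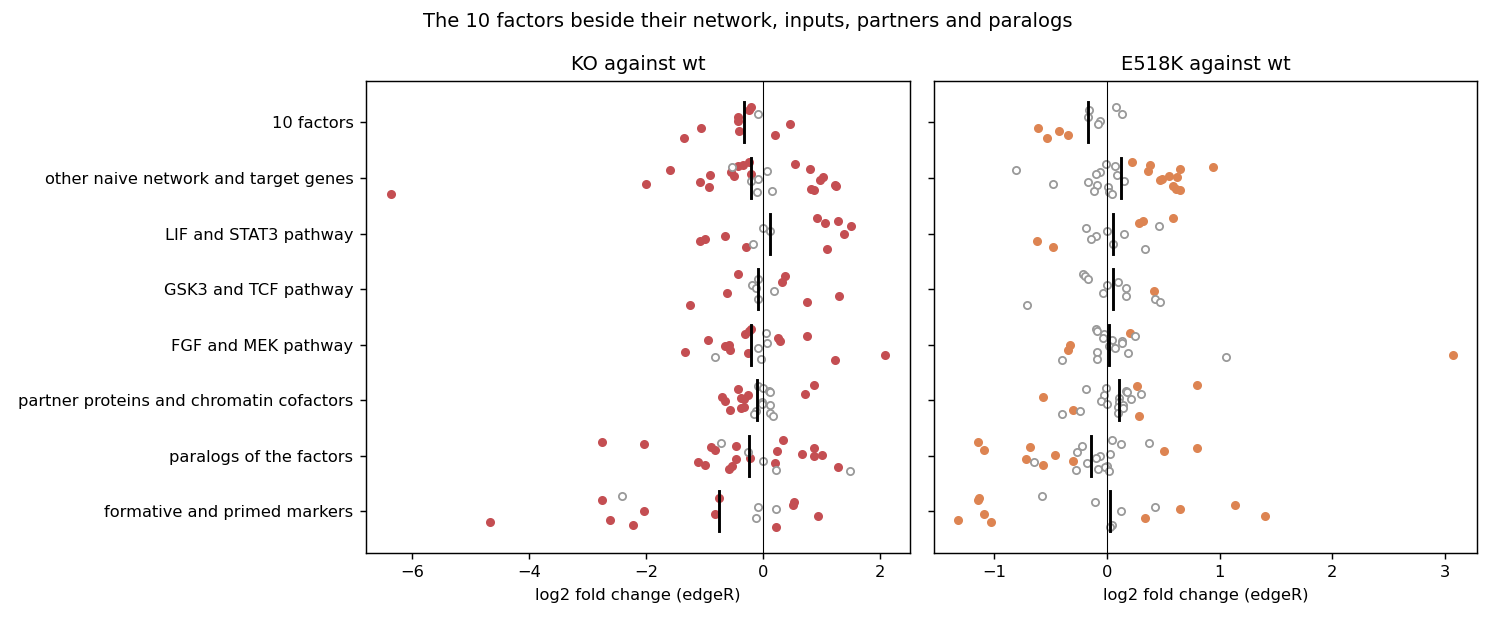
Log2 fold changes (edgeR) of the 10 factors and of 7 lists of related genes, in KO against wt (left) and E518K against wt (right). Filled points have an adjusted p under 0.05, grey open points do not, and bars are list medians. The other naive genes have 12 filled points to the right of 0 and none to the left in E518K against wt, where the factors have 4 to the left.

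Among the factors themselves, likeness was measured as the Euclidean distance between log2 CPM centred on each gene's mean over the 6 libraries, a description with no test. The closest pair was Pou5f1 and Nanog at 0.148, then Sall4 and Esrrb at 0.198, and Klf4 and Tbx3 lay at 0.402. Of 12162 genes whose mean log2 CPM was 1 or more, the nearest to Esrrb were RP24-234J3.3 (0.0182) and Seh1l (0.0308), to Tbx3 it was Apbb1 (0.0669), to Klf4 Aamdc (0.0857) and to Klf5 Slc1a1 (0.0717). Nearest to Tfcp2l1 were Cbx6 (0.0486) and Npcd (0.0504), which overlap each other in the genome and can share reads. Nearest to Klf2 was Smad6 (0.114), with 15.21 and 15.53 CPM in KO, 10.77 and 9.422 in E518K and 12.77 and 9.087 in wt. Pou5f1 had Ovca2 (0.044), which overlaps Dph1, Sox2 had Rpap1 (0.05), Nanog had Cenpn (0.0666) and Sall4 had Eif3f (0.0432). None of these is another of the 10 factors.

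Promoter windows, from 250 bases before to 50 after a RefSeq start, were available for 7 of the 10 factors. The composite OCT-SOX motif TGCATNACA, searched on both strands, occurred in both windows of Nanog, beside 0.801% of 32851 promoter windows. It is shown in capitals.
Nanog, chr6:122707406-122707434, plus strand: cagcttctttTGCATTACAatgtccatgg
The motif starts 73 or 149 bases before the annotated starts of the gene. The SOX motif ACAATGG occurred in windows of Pou5f1 and Esrrb, beside 3.66% of promoters. The Pou5f1 match, within chr17:35508639-35508665, is in the window of a second annotated start (chr17:35508557-35508856), inside the gene's span. The window at its first start (chr17:35505782-35506081) held none. The octamer ATGCAAAT (1.74% of promoters), the ESRRB motif TCAAGGTCA (0.423%), the KLF motif GGGTGTGG (3.56%), the STAT3 motif TTCCNGGAA (1.15%) and the T-box motif AGGTGTGA (1.28%) were not among the letters of any window of these 7 factors.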

How the data were processed

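Polyadenylated RNA of 6 libraries was sequenced on a BGISEQ-500 as read pairs, per the labels' protocols. The submitters' processing notes name STAR, bedtools and GRCm38.p6, without versions or roles. The deposited count table holds raw whole-number counts per gene symbol. In the deposited TPM table the authors had divided these by a length for each gene and scaled each library to a common sum. That length followed the gene span in GENCODE M21, so reads in introns appear to be counted. The table has 21978 entries, 14 duplicated symbols and 19791 symbols with coordinates. 3534 genes overlap another gene of the table, and none of the 10 factors does. GENCODE M21 does annotate other genes that overlap Pou5f1 (Gm19553), Sox2 (Sox2ot, on the same strand), Sall4 (Gm14261), Tbx3 (Tbx3os1) and Tfcp2l1 (Gm22094, Gm28882 and Gm23497). Whether their reads were counted with these factors was not tested.

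Counts were tested with edgeR 4.0.16 in R 4.3.3 (TMM factors, filterByExpr at its default minimum of 10 counts, robust quasi-likelihood F test, group as the only term, all 6 libraries, 3 residual degrees of freedom). Benjamini-Hochberg adjustment ran over all 16498 tested genes, with a threshold of 0.05. Errors of log2 fold changes are standard errors, with 2 libraries per group. They were computed as the absolute log2 fold change over the square root of its F statistic. They thus rest on the shared estimate of spread. DESeq2 1.42.0, limma 3.58.1 on log2(TPM + 1) and log2(TPM + 0.1), other scalings, other filters and left-out libraries were alternatives. Replicate libraries differed by more than counting noise: chi-square over its degrees of freedom was 3.63 in KO, 22.8 in E518K and 54.3 in wt. The p-values rest on an estimate of spread shared by all 3 groups, and measure the spread of no single group. The common coefficient of variation beyond counting noise was 2.6% in KO, 9.19% in E518K, 20.6% in wt and 11.9% in the shared fit. Both KO titles carry clone 261, so the spread between the KO libraries may be technical. It enters the shared estimate in every comparison, E518K against wt included.

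The factors, lists, miRNA families and motifs were chosen with earlier results of these data known. Named genes were the 10 factors, for each list and comparison the 4 called genes with the smallest p, for each factor the 2 genes nearest in pattern, and Dgcr8. The other NuRD genes and paralogs of Sall4 and Tfcp2l1 were named after their values were seen. Zfp42, Dppa5a and the marker sums check the cell type.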

Additional observations from a re-analysis of the deposited data

How the results depend on the processing

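No paired analysis was possible because the groups share no replicate numbers. Of 450 values of the 10 factors under alternatives, 363 kept their direction and side of the threshold, 59 lost a call, 19 gained one and 9 changed sign; the calls of Sall4, Esrrb, Klf4 and Tbx3 in KO against wt and of Esrrb, Tfcp2l1 and Tbx3 in E518K against KO held under all 15. The sign changes, none of a called value, were Nanog in KO against wt without wt clone 12 (0.02, and -0.19 without clone 16); Pou5f1 without wt clone 16 (-0.01, and 0.18 without clone 12) and Klf2 without wt clone 12 (0.15, and -0.28 without clone 16) or E518K clone 15 (0.05) in E518K against wt; and, in E518K against KO, Sox2 on log2(TPM + 1) and log2(TPM + 0.1) (-0.02 each) and Klf5 among genes that overlap no other (0.02), without KO library 3 (0.04, and -0.04 without library 1) or E518K clone 8 (0.03).

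With the KO libraries summed, which leaves fewer samples, calls numbered 6163 (KO against wt), 1909 (E518K against wt) and 3267 (E518K against KO), against 9429, 3917 and 6902; the factors called were 4, 2 and 3, and the genes of the other lists 32 of 60 in E518K against wt and 56 of 87 in E518K against KO. With only the 4 libraries compared, E518K against wt called 1999 genes, 2 factors and 35 list genes. Leaving out 1 library gave 6084 to 10958 genes and 4 to 9 factors in KO against wt, 644 to 6987 genes, 0 to 6 factors and 11 to 91 list genes in E518K against wt, and 3285 to 9482 genes, 3 to 8 factors and 54 to 125 list genes in E518K against KO. Calls split into 1862 higher and 2055 lower in E518K against wt, but 807 and 2202 by limma on log2(TPM + 1) and 1472 and 2455 with upper-quartile factors; in E518K against KO they split into 3636 and 3266, but 2550 and 3715 by limma. The cause was not tested. The median over all genes moved by no more than 0.08 (-0.08, E518K against KO, log2(TPM + 0.1)). Counting 8mers only left 8 of 19 pairs of factor and seed family. Exon length in place of span kept the rank of 3 factors. Depth was not varied, and its part in these calls was not tested.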
